A study of Mus musculus with 24 samples.

Results

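Genes of the myofibroblast programme and of matrix crosslinking were followed through experimental autoimmune myocarditis (EAM) in the mouse heart. The 10 genes are Acta2, Tagln and Cnn1 (contractile proteins of smooth muscle and myofibroblasts), Cthrc1, Fn1 and Fap (genes of activated fibroblasts and their matrix), and Lox, Loxl1, Loxl2 and Loxl3 (enzymes that crosslink collagen and elastin). The 10 genes each matched by symbol 1 Ensembl identifier among the 41388 genes of the deposited count table, and all 10 had enough reads to be tested in every comparison.

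A portion of the heart was taken from wild-type male BALB/cAnNCrl mice (Balb/c in the labels), aged 8 to 10 weeks at immunization, and its RNA was sequenced at 10, 15 and 21 days (D10, D15 and D21). EAM mice were given a myosin heavy chain peptide in supplemented complete Freund's adjuvant, with pertussis toxin. Control mice were given PBS in place of the peptide and the same adjuvant and toxin, so every group here carried the adjuvant. Each of the 6 groups held 4 hearts, and where it could be done the EAM hearts sequenced were ones with inflammation, so they do not stand for all immunized mice. At D10, by the paper's account, no EAM mouse had raised CD45+ cells (leukocytes) in the heart or raised cardiac troponin I. The D10 EAM hearts were therefore not inflamed by the study's own measures.

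When fibroblasts are activated in an injured heart they become myofibroblasts. They take up smooth muscle actin and other contractile proteins, and they lay down fibronectin and collagen. Lysyl oxidases are copper enzymes secreted into the matrix, where they oxidize lysines of collagen and elastin so that the fibres become covalently linked and harder to degrade. In the normal heart, Acta2, Tagln and Cnn1 are mainly genes of the smooth muscle of vessels, and Acta2 is also a gene of muscle cells in the developing heart.

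The enzymes of the last 4 genes share a catalytic region whose histidines hold the copper ion. The stretch of coding sequence around these histidines is shown for the 3 paralogues of Lox among the members and for Loxl4, the remaining paralogue, because it is what makes the group 1 enzyme family. It was read from the GENCODE M21 transcripts of GRCm38, 5′ to 3′ on the coding strand, and capitals mark the codons of histidine.
Loxl1: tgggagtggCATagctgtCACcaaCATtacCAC
Loxl2: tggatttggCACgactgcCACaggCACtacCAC
Loxl3: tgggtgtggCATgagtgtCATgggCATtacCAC
Loxl4: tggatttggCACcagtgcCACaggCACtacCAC

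The stretch covers codons 476 to 486 of 607 in Loxl1, 622 to 632 of 776 in Loxl2, 602 to 612 of 754 in Loxl3 and 607 to 617 of 758 in Loxl4. Over whole coding sequences, Lox and Loxl1 were alike at 67.7% of aligned bases, and Loxl2 and Loxl3 at 66.1%. No window of 75 bases, the read length, in the exons of Lox, Loxl1 or Loxl3 occurred in another gene's transcripts on the same strand. Of the windows of Loxl2, 43.6% also occurred elsewhere, nearly all of them in Gm21451. Reads from these windows cannot be assigned with certainty, and values of Loxl2 carry that limit.

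The genes lie on several chromosomes of GRCm38. Tagln is at chr9:45929619-45936058, Cnn1 at chr9:22099216-22109630 and Loxl1 at chr9:58287738-58313186. Acta2 is at chr19:34241090-34255590, Cthrc1 at chr15:39076932-39087121, Fn1 at chr1:71585520-71653200 and Fap at chr2:62500943-62574075. Lox is at chr18:52516067-52529867, Loxl2 at chr14:69609068-69695834 and Loxl3 at chr6:83034173-83052562. Exons of Loxl3 overlap those of Htra2 on the opposite strand over 535 bases, 11.6% of the length of Loxl3, so reads from that stretch cannot be assigned with certainty. Exons of Tagln overlap those of Pcsk7 over 108 bases on the opposite strand. Gm48529, which was not among the genes counted, overlaps 62.4% of the exon length of Tagln on the opposite strand. The sources used here do not state whether counting used strand.

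Total counts per heart lay between 15814863 and 24980864. Expression is given as CPM, the reads of a gene scaled to a common library size after TMM normalization, and tests are edgeR's quasi-likelihood test on the counts with Benjamini-Hochberg adjustment (FDR) over all genes tested. Genes with an FDR under 0.01 and a change of at least 2-fold are called induced or repressed. Nothing in the labels says what a replicate number marks, so p-values measure the spread between these hearts. The 4 libraries of D21 EAM carry a different library code from the other 20, and at D21 that difference and EAM cannot be told apart. Cardiomyocyte markers were high in every library, with a summed level of 12 genes between 11075 and 48967 CPM. Fewer cells of a type and less RNA per cell cannot be told apart in RNA from whole tissue.

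In control hearts the 10 genes were expressed at very different levels. Divided by the summed length of their exons, Acta2 stood at 254 ± 69.8 CPM per kilobase (SD, n = 12), above every other member in all 12 hearts. Tagln at 29.7 ± 8.41 and Loxl1 at 27.3 ± 3.43 CPM per kilobase came next and did not differ beyond their spread. Fn1 (6.83 ± 1.71) and Loxl2 (6.10 ± 0.968) followed, then Cnn1 (3.53 ± 1.54), Lox (2.999 ± 1.14) and Loxl3 (1.77 ± 0.242), each overlapping its neighbour in the order. Fap, a membrane-bound serine protease, was at 0.835 ± 0.185 and Cthrc1, a secreted glycoprotein of injured tissue, at 0.335 ± 0.196 CPM per kilobase.

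At D15 this order was different in EAM hearts. Lox had the highest mean level per length at 136 ± 50.5 CPM per kilobase (SD, n = 4), followed by Fn1 at 122 ± 64.3 and Acta2 at 97.1 ± 9.29, with overlapping ranges. Cthrc1 reached 25.7 ± 15.7 CPM per kilobase, near Tagln at 30.1 ± 2.43.

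**Figure D1:**
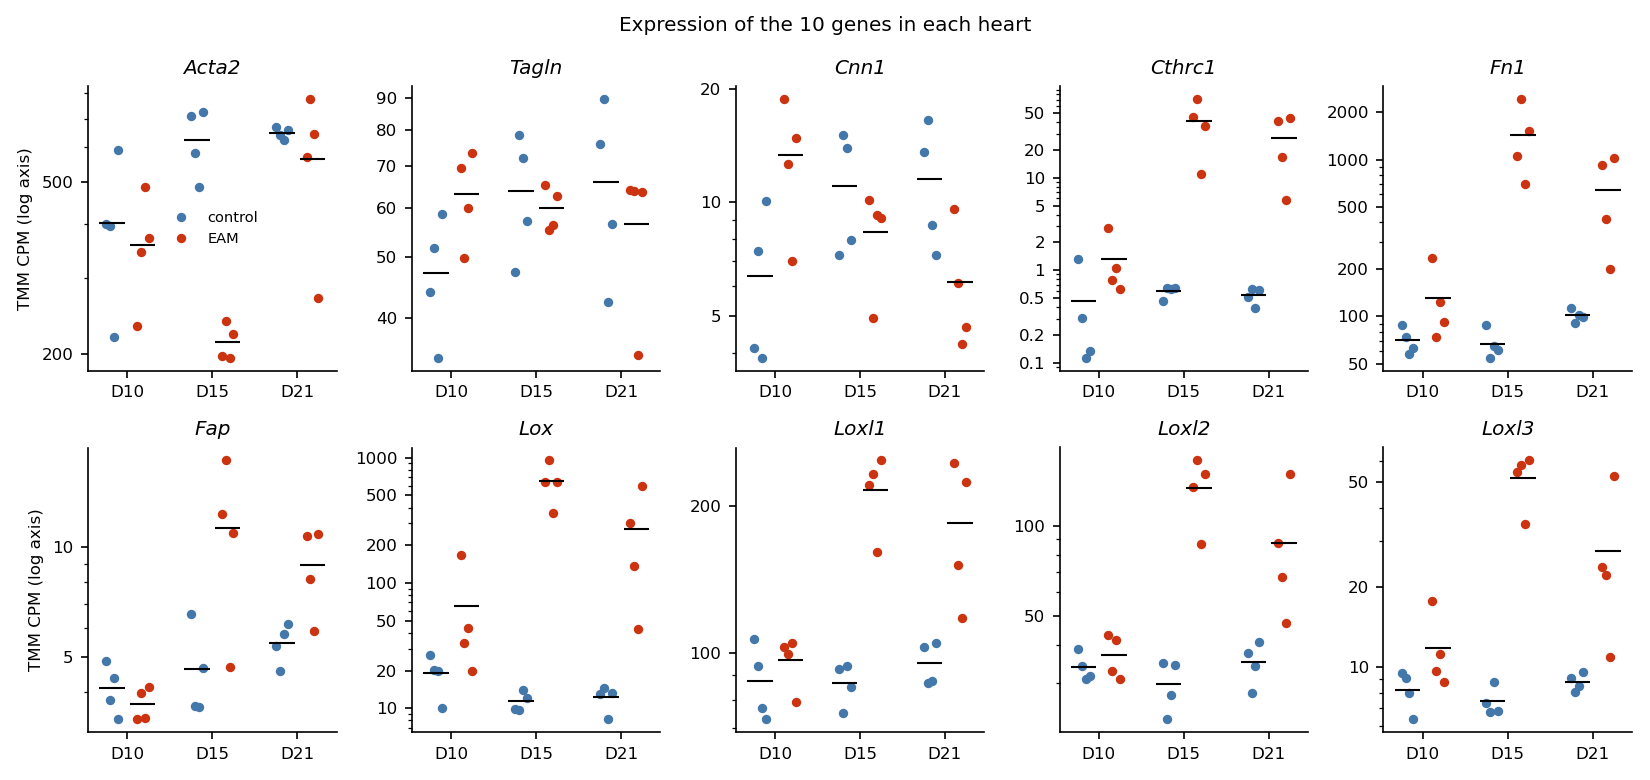
TMM-normalized CPM of each of the 10 genes on a log axis, with 1 point for each heart, control in blue and EAM in red, and the black bar at the mean of 4. At D15 the 4 EAM hearts lie above the 4 control hearts for 6 genes and below them for Acta2.

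The first comparison asks whether these genes had moved at D10, before the stages at which the hearts are heavily inflamed. None of the 10 genes was called, and 0% of the 15029 genes tested were called in either direction by this test. At an unadjusted p under 0.05, 4 members were higher in EAM (Tagln, Cnn1, Fn1 and Lox), against 9.49% of all genes tested that were higher at that limit, and 2279 genes passed it in either direction. The likelihood ratio test called 45 genes higher and 2 lower, and DESeq2 48 and 4, with 0 members in either. With all 12 control hearts as the comparison, 636 of 15545 genes were called higher and 52 lower, and Lox was the 1 member among them.

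Lox at D10 had 167, 33.0, 44.0 and 19.9 CPM in the 4 EAM hearts and 26.6, 20.4, 20.001 and 9.98 CPM in the controls. The log2 fold change was 1.77 ± 0.64 (SE), with an FDR of 0.328, and without EAM replicate 1 it was 0.73. EAM replicate 1 stood far above the other EAM hearts, and the lowest EAM heart was below 3 of the 4 controls. Fn1 was also highest in that heart, at 237 CPM against 74.2, 124 and 92.8 in the other EAM hearts and 57.6 to 88.3 in controls, a log2 fold change of 0.89 ± 0.34 (FDR 0.328) that was 0.45 without that heart. EAM replicate 1 had the highest level of 6 of the 10 genes in its group. Its summed level of 16 leukocyte markers was 2874 CPM, against 641 to 1202 in the other D10 EAM hearts and 454 to 765 in D10 controls, and the part of that difference in these values was not tested.

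Cnn1, which codes for calponin, had 18.8, 12.6, 7.02 and 14.8 CPM in D10 EAM hearts and 4.11, 7.43, 3.88 and 10.1 CPM in controls. The groups overlapped, and the log2 fold change was 1.06 ± 0.37 (FDR 0.328). Tagln ranged from 49.8 to 73.6 CPM in EAM and from 34.5 to 58.6 in controls, a log2 fold change of 0.41 ± 0.18 (FDR 0.329). Acta2 had a log2 fold change of −0.18 ± 0.30, Fap of −0.16 ± 0.16, Loxl1 of 0.13 ± 0.14, Loxl2 of 0.12 ± 0.13 and Loxl3 of 0.51 ± 0.24. Cthrc1 had 65, 14, 19 and 12 reads in EAM hearts and 23, 6, 2 and 2 reads in controls, so its log2 fold change of 1.54 ± 0.75 rests on few reads.

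Markers of 2 other cell types also separated D10 controls from D10 EAM hearts. The summed level of 7 mesothelial markers was 9.02 to 14.2 CPM in D10 controls against 23.1 to 60.3 in D10 EAM hearts, and that of 8 atrial markers was 351 to 636 against 741 to 2425 CPM. These sums did not overlap, and their part in the D10 values of the members was not tested.

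At D15 the members split into genes of the matrix and its crosslinking, which were induced, and contractile genes, which were not. In EAM hearts 7 of the 10 genes were induced (Cthrc1, Lox, Fn1, Loxl3, Loxl2, Loxl1 and Fap), where 18.1% of the 15693 genes tested were induced. Acta2 was repressed, where 12.9% of genes tested were. Tagln and Cnn1 were not called. For 6 members all 4 EAM hearts lay above all 4 controls, as for 34.6% of genes tested, and for Acta2 all 4 lay below, as for 35.9%. The median log2 fold change over the 10 genes was 1.78, beside 0.02 over all genes tested.

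**Figure D2:**
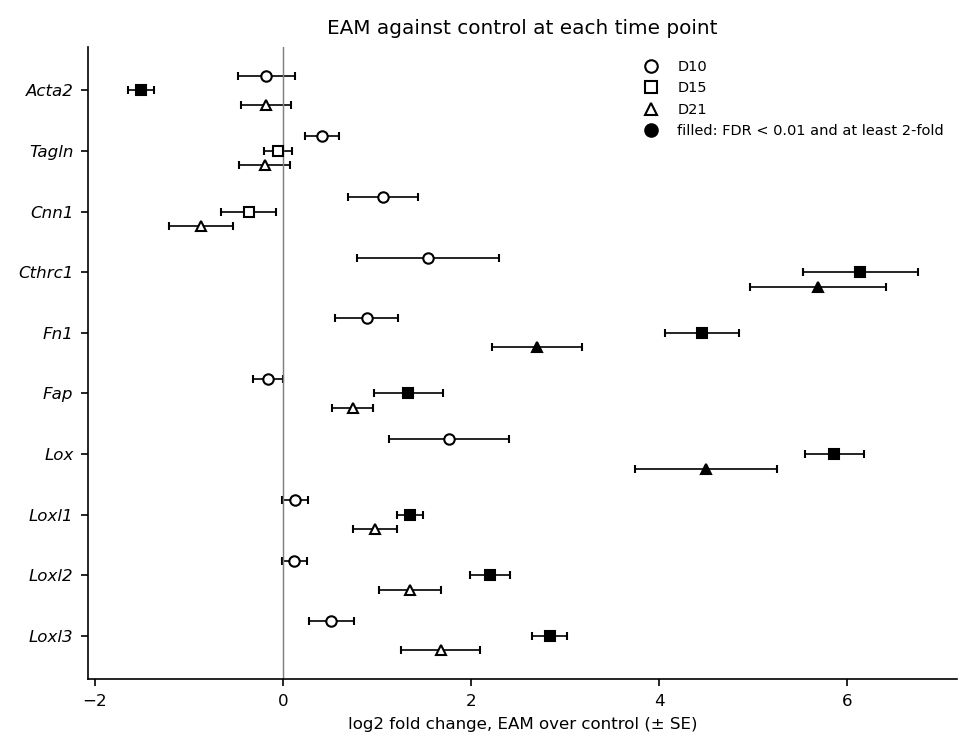
Log2 fold change of EAM over control with its SE for the 10 genes at D10 (circles), D15 (squares) and D21 (triangles), filled where the FDR is under 0.01 and the change at least 2-fold. No symbol is filled at D10, 8 are at D15 and 3 at D21, and Acta2 at D15 is the only filled symbol left of 0.

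The largest change among the members was that of Cthrc1. Its level was 45.2, 71.5, 11.1 and 36.2 CPM in D15 EAM hearts and 0.469, 0.650, 0.622 and 0.648 CPM in controls. Every EAM heart was far above every control, and the controls held 9 to 12 reads each against 262 to 2039 in EAM hearts. The log2 fold change was 6.13 ± 0.61 (FDR 1.83e-05), a 70.2-fold difference.

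Lox, the founding lysyl oxidase, rose from 9.90, 9.75, 14.1 and 12.02 CPM in D15 controls to 638, 951, 361 and 641 CPM in EAM hearts. Its log2 fold change of 5.86 ± 0.32 (58.1-fold, FDR 3.99e-07) was over 3 log2 units above that of Loxl3, the next lysyl oxidase in order. Fn1, the gene of fibronectin, rose from 88.4, 54.4, 64.5 and 60.8 CPM in controls to 1054, 2438, 704 and 1517 CPM. Its log2 fold change was 4.45 ± 0.39 (21.9-fold, FDR 8.9e-06), and the EAM hearts differed among themselves by a wide margin, with replicate 2 the highest and replicate 3 the lowest.

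The other lysyl oxidases rose less. Loxl3 had 54.4, 57.8, 34.6 and 60.2 CPM in D15 EAM hearts against 7.35, 6.79, 8.81 and 6.83 CPM in controls, a log2 fold change of 2.83 ± 0.19 (FDR 1.32e-06). Loxl2 had 135, 165, 86.7 and 149 CPM against 35.0, 22.7, 27.3 and 34.4 CPM, a log2 fold change of 2.20 ± 0.21 (FDR 1.55e-05). Loxl1, the most abundant of the 4 in controls, had 220.4, 233, 160.5 and 248 CPM against 92.6, 75.2, 93.9 and 85.1 CPM, a log2 fold change of 1.35 ± 0.14 (FDR 2.14e-05). For all 3 genes EAM and control hearts did not overlap. Loxl4, which is not among the 10, rose from 2.47 ± 0.649 to 13.4 ± 1.02 CPM (log2 fold change 2.48 ± 0.17, FDR 1.86e-06), so all 5 genes of the family were induced at D15.

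Fap had 12.4, 17.3, 4.69 and 10.9 CPM in D15 EAM hearts and 6.57, 3.66, 3.63 and 4.65 CPM in controls. EAM replicate 3 lay among the controls. The log2 fold change of 1.33 ± 0.37 had an FDR of 0.0083, close to the limit, and with 1 heart left out it was called in 2 of 8 cases, without control replicate 1 and without EAM replicate 3. Without any other heart the FDR was above 0.01 and reached 0.0278. limma-voom gave it an FDR of 0.0316.

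EAM replicate 3 had the lowest level of 8 of the 10 genes in its group at D15, all but Tagln and Cnn1. Its summed leukocyte marker level was 3348 CPM, the lowest of the 4 EAM hearts (4294 to 4608 in the others), and its cardiomyocyte marker level was 26191 CPM, the highest (11075 to 16567 in the others). Leukocyte markers in D15 controls summed to 309 to 401 CPM, and 15 of 16 were induced in EAM. The 12 general fibroblast markers summed to 2191 to 3292 CPM in D15 EAM hearts and to 3370 to 4000 CPM in controls, with 2 induced and 1 repressed. The median log2 change of these 12 was 0.09. The 12 endothelial markers summed to 1308 to 1522 CPM against 1726 to 2150 CPM. The part of these cell types in the members' values was not tested.

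Acta2, the gene of smooth muscle actin, went the other way. It had 198, 238, 195 and 222 CPM in D15 EAM hearts and 711, 582, 487 and 724 CPM in controls. Every EAM heart was below every control, and the log2 fold change was −1.51 ± 0.14 (FDR 1.13e-05), a 2.86-fold difference. It stayed called without any 1 of the 8 hearts, with log2 fold changes between −1.61 and −1.42. Actc1 codes for the cardiac and Acta1 for the skeletal muscle form of actin, both close to the protein of Acta2, with 82.5% and 85.4% of coding bases shared with Acta2, but their longest shared runs are 23 and 29 bases and no window of 75 bases of Acta2 occurs in another gene.

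Over the 24 hearts, with the mean of each group removed, the log2 level of Acta2 had a Pearson correlation of 0.71 with Actc1, 0.486 with Acta1 and 0.01 with Tagln. These are descriptions over hearts that share groups and total counts. Actc1 was at 1293 ± 271 CPM in D15 EAM hearts and 3630 ± 234 in controls. The log2 ratio of Acta2 to Actc1 reads was −2.58 ± 0.408 in D15 EAM hearts and −2.55 ± 0.235 in controls. This ratio was chosen after the values of the actins had been seen and is given as a description. Acta1 was at 1335 ± 260.7 CPM in D15 EAM hearts and 2202.5 ± 103 in controls, and at 3169.9 ± 433 against 1918 ± 329 CPM at D21, where Acta2 was not higher. The summed level of 12 cardiomyocyte markers was 11075 to 26191 CPM in D15 EAM hearts and 39513 to 45845 in controls, with 8 of 12 repressed.

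**Figure D3:**
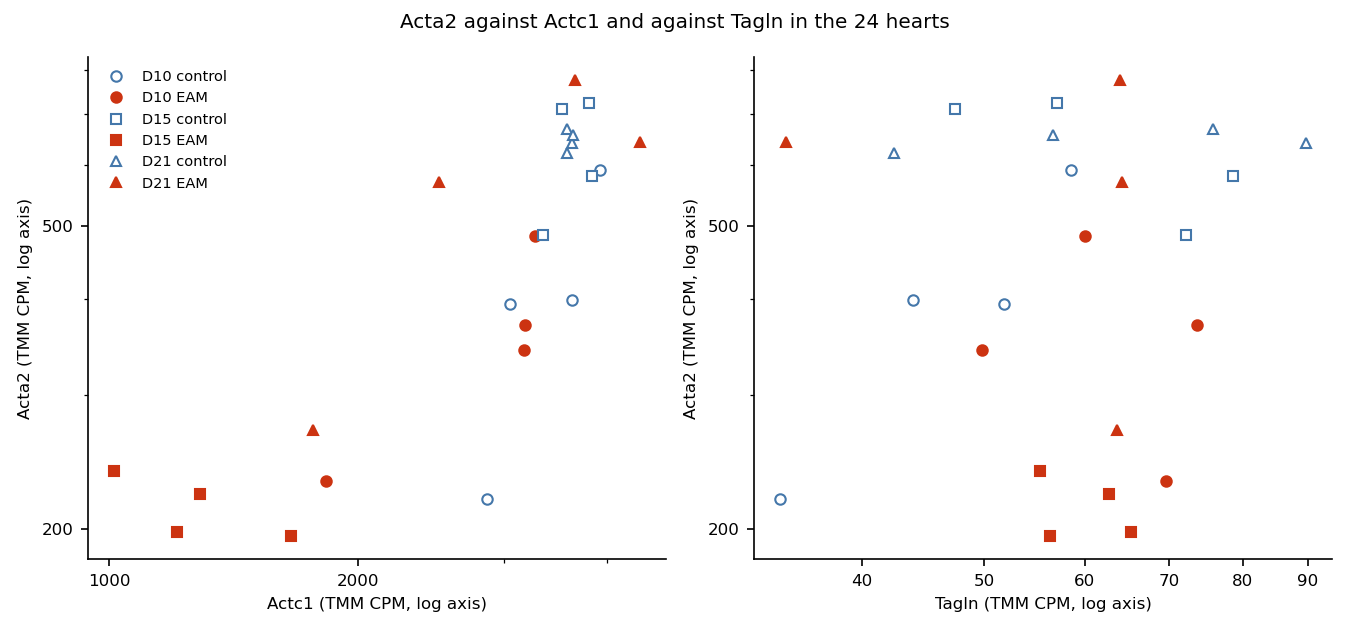
CPM of Acta2 in the 24 hearts against Actc1 (left) and Tagln (right), on log axes, with circles for D10, squares for D15 and triangles for D21, open blue for control and filled red for EAM. The 4 D15 EAM hearts are low in both Acta2 (195 to 238 CPM) and Actc1 (1015 to 1662 CPM), while their Tagln (55.3 to 65.3 CPM) lies within the range of the controls.

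Tagln, which codes for the actin-binding protein transgelin, had 65.3, 55.3, 56.3 and 62.7 CPM in D15 EAM hearts and 47.4, 78.6, 72.1 and 57.1 CPM in controls. The EAM hearts lay within the range of the controls, and the log2 fold change was −0.05 ± 0.15 (FDR 0.762). Cnn1 had 10.2, 4.94, 9.24 and 9.07 CPM in EAM against 7.24, 15.1, 13.9 and 7.95 CPM in controls (log2 fold change −0.37 ± 0.29, FDR 0.278). Of the 12 markers of smooth muscle and pericytes, 3 were repressed at D15 and 0 induced. Their sum was 687 to 1079 CPM in EAM hearts against 1618 to 2026 CPM in controls. Single markers were mixed, with 5 of the 12 above 0 and a median log2 change of −0.33. Actg2 and Lmod1 are on that list and on the list of contractile genes below.

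At D21 fewer members passed the limits and the EAM hearts were spread more widely. In EAM hearts 3 of the 10 genes were induced (Cthrc1, Lox and Fn1), where 4.3% of 15266 genes tested were, and 0 were repressed, where 1.3% of genes were. At an unadjusted p under 0.05, 7 members were higher and Cnn1 was lower, where 25.4% of genes tested were higher and 21.6% lower at that limit. For 6 members (Cthrc1, Fn1, Lox, Loxl1, Loxl2 and Loxl3) all EAM hearts were above all controls, as for 17.8% of genes tested. The median log2 fold change over the 10 genes was 1.17, beside −0.01 over all genes tested.

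Cthrc1 had 41.2, 16.7, 5.75 and 44.2 CPM in D21 EAM hearts and 0.509, 0.624, 0.394 and 0.615 CPM in controls, a log2 fold change of 5.68 ± 0.73 (FDR 0.00428). Lox had 302, 138, 43.2 and 595 CPM against 13.1, 14.7, 8.14 and 13.3 CPM, a log2 fold change of 4.50 ± 0.75 (FDR 0.0067). Fn1 had 924, 416, 200.0 and 1030.4 CPM against 114, 91.2, 103 and 98.9 CPM, a log2 fold change of 2.69 ± 0.48 (FDR 0.00725). In all 3 genes EAM replicates 1 and 4 were high and replicate 3 was low, at levels several times apart, though still above each control.

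The other lysyl oxidases and Fap missed the limit of 0.01. Loxl3 had 23.96, 22.3, 10.9 and 52.7 CPM in D21 EAM hearts against 9.10, 8.07, 8.49 and 9.58 CPM in controls (log2 fold change 1.68 ± 0.42, FDR 0.0195). Loxl2 had 87.2, 67.3, 47.6 and 149 CPM against 37.6, 27.9, 34.2 and 41.0 CPM (1.35 ± 0.33, FDR 0.0182). Loxl1 had 245, 151, 118 and 224 CPM against 103, 86.6, 87.3 and 105 CPM (0.98 ± 0.23, FDR 0.0164). Every EAM heart was above every control for these genes, with replicate 3 the closest to them. Fap had 10.7, 8.18, 5.88 and 10.9 CPM against 5.34, 4.56, 5.78 and 6.15 CPM (0.74 ± 0.22, FDR 0.0337), and its groups overlapped at replicate 3.

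The contractile genes were not called at D21. Cnn1 had 9.61, 6.10, 4.21 and 4.69 CPM in EAM and 13.6, 16.6, 8.71 and 7.27 CPM in controls, a log2 fold change of −0.87 ± 0.34 (FDR 0.0742). Acta2 had 571, 777, 644 and 269.6 CPM against 669.9, 641, 623 and 657 CPM, a log2 fold change of −0.18 ± 0.26 (FDR 0.606). EAM replicate 4, which was highest in 6 of the matrix and crosslinking genes, was the lowest in Acta2. Tagln was near 64 CPM in 3 EAM hearts and at 34.8 CPM in replicate 3, against 42.4 to 89.7 CPM in controls (−0.20 ± 0.27, FDR 0.589).

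The number of D21 calls changed with the heart left out, for the members as for all genes. When any 1 control heart was left out, or EAM replicate 1 or EAM replicate 2, 0 of the 10 genes were called, and 0 to 19 of all genes were called higher, against 657 with every heart. The log2 fold changes stayed between 5.34 and 6.01 for Cthrc1, 3.75 and 4.84 for Lox and 2.37 and 2.98 for Fn1 with any 1 heart left out. Without EAM replicate 3 it was 6 members and 1480 genes higher, and without EAM replicate 4 it was 2 and 303. Deviations of same-numbered EAM and control hearts of D21 correlated weakly (0.101 to 0.307), and no label pairs these hearts. A fit that blocks on this number called 2 members, Cthrc1 (FDR 0.00159) and Lox (FDR 0.0074), while Fn1 had a log2 fold change of 2.43 and lost its call (FDR 0.0136). limma-voom called 0 members and 80 genes higher, and the likelihood ratio test and DESeq2 called 5 members each, with 1356 and 1364 genes higher. With all 12 control hearts as the comparison 6 members and 1588 genes higher were called. In each of these the direction of the 7 matrix and crosslinking genes was higher in EAM.

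D21 EAM replicate 3, the lowest heart in 9 of the 10 genes, had a summed leukocyte marker level of 842 CPM. The other D21 EAM hearts had 2671, 1420 and 3236 CPM, and D21 controls 306 to 531. Its summed cardiomyocyte marker level was 47941 CPM, against 21629 to 37138 in the other EAM hearts. The 8 atrial markers summed to 147 to 285 CPM in D21 EAM hearts and 2087 to 3241 CPM in D21 controls, with 7 of 8 repressed. The fibroblast markers summed to 2263 to 3472 CPM against 3536 to 4451 CPM, and 12 endothelial markers to 1313 to 1958 against 2095 to 2353 CPM, without overlap. The median log2 change was −0.03 for the fibroblast and −0.40 for the endothelial markers. The part of these differences in the members' values was not tested.

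Whether EAM had different effects at neighbouring time points was tested in a fit of all 24 hearts. From D10 to D15 the effect of EAM grew for 7 of the 10 genes, where 5.3% of 16318 genes tested had an effect that moved up. The 7 were the genes induced at D15, with log2 differences of effect between 1.17 for Loxl1 and 4.55 for Cthrc1. For Lox the difference was 4.05 ± 0.89 (FDR 0.00233) and for Fn1 it was 3.51 ± 0.61 (FDR 0.00162). For Acta2 the effect moved down by 1.39 on the log2 scale (SE 0.39, FDR 0.00757), where 7.56% of genes tested moved down. For Cnn1 it moved from above 0 to below 0, by −1.48 ± 0.52 with an FDR of 0.0255. For both genes the contrast includes a difference between the control groups, which was not called. In control hearts alone D15 was above D10 by 0.65 ± 0.22 for Acta2 (FDR 0.135) and by 0.81 ± 0.35 for Cnn1 (FDR 0.254). Mean Acta2 went from 401 to 626 CPM in controls and from 358 to 213 CPM in EAM hearts. Over the D15 minus D10 contrast of the EAM effect, 9 of 16 leukocyte markers moved up (median 2.33). Of the others, 7 of 12 cardiomyocyte (median −1.20), 5 of 8 atrial (−2.59) and 1 of 7 mesothelial markers (−3.50) moved down. The part of these markers in the members' values was not tested.

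Calls of Fn1, Lox, Loxl1, Loxl2 and Loxl3 held without any 1 of the 24 hearts. Fap was called in 7 of the 24 cases, without D10 control replicate 4, D15 control replicate 1, D15 EAM replicate 3 or any of the D21 EAM hearts, and its FDR otherwise reached 0.0214, with log2 differences of 1.20 to 1.70 over all 24 cases. Cthrc1 was called in 4, without D10 control replicate 3, D10 EAM replicate 1, D15 EAM replicate 3 or D21 EAM replicate 3, and its FDR otherwise reached 0.163, with log2 differences of 3.27 to 5.29. Acta2 was called in 11 of the 24. It was lost without D10 control replicates 1, 2 or 3, D10 EAM replicates 2, 3 or 4, D15 control replicates 1, 2 or 4, or any of the D15 EAM hearts, with an FDR of at most 0.0204 and log2 differences of −1.64 to −1.18. With the replicate block Acta2 was not called, with an FDR of 0.0173, and 6 rather than 7 members moved up, among 1335 rather than 865 genes.

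Between D15 and D21, 0 of the 10 genes were called, where 3.81% of 16318 genes tested were called in either direction. At an unadjusted p under 0.05 there were 4 members, Acta2, Fn1, Loxl2 and Loxl3, and 6689 of the 16318 genes, so that 4 of 10 was near the share of all genes. The effect on Acta2 moved up by 1.36 ± 0.39 (FDR 0.0139), and the likelihood ratio test and DESeq2 called it. The effect on Fn1 moved by −1.75 ± 0.59 (FDR 0.0325), on Loxl3 by −1.15 ± 0.44 (FDR 0.0559) and on Loxl2 by −0.84 ± 0.36 (FDR 0.0806). For Cthrc1 the difference was −0.44 ± 1.13. Without D21 EAM replicate 4, 3 members were called, 1 up and 2 down, among 1125 genes up and 457 down, against 464 and 158 with every heart. The effect on 12 cardiomyocyte markers had a median change of 1.18, with 6 moved up, and that on 8 atrial markers −3.99, with 4 moved down. That on 16 leukocyte markers had a median of −1.14, with 0 called and 4 lower at an unadjusted p under 0.05, and the part of these in the members' values was not tested. These contrasts share the D15 hearts with the preceding comparison.

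In control hearts, which received adjuvant and toxin, changes of the 10 genes with time stayed under the limits for a call. Between D10 and D15 0 members were called, where 0.0588% of 15311 genes tested were. Between D10 and D21 0 members were called, where 0.993% were, and between D15 and D21 0, where 0% were. The largest differences were in Cnn1, Lox and Acta2. Cnn1 was higher than at D10 by 0.81 ± 0.35 at D15 (FDR 0.254) and by 0.87 ± 0.35 at D21 (FDR 0.119) on the log2 scale. Lox was lower at D15 than at D10 by −0.74 ± 0.25 (FDR 0.135), and Acta2 higher by 0.65 ± 0.22 (FDR 0.135). Over the same interval 12 of 15 leukocyte markers were lower at an unadjusted p under 0.05, and their part in the values of Lox was not tested. At D21 against D10, Acta2 was higher by 0.69 ± 0.22 (FDR 0.055) and Fn1 by 0.53 ± 0.15 (FDR 0.035). Between these time points 5 members were higher and 1 lower at an unadjusted p under 0.05. In either direction 4360 of 15311 genes passed that limit. The mean mesothelial and atrial marker sums of D10 controls were the lowest of the 3 control groups. At D21 against D10, 7 of 8 atrial markers (median log2 change 2.62) and 3 of 7 mesothelial markers (3.28) were called higher in controls. Their part in the members' values was not tested.

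Levels in tissue depend on how many cells of a kind are present, and each member was also set against a reference gene in the same heart. Fap and Cthrc1 were divided by Pdgfra, a receptor of fibroblasts, and the contractile members by Myh11, the smooth muscle myosin. Fn1 and the lysyl oxidases were divided by Col1a1, a chain of type I collagen. Col1a1 was itself induced at D15 and D21 (log2 fold changes 4.45 ± 0.38 and 3.20 ± 0.44). Ratios to it set a gene beside collagen and do not correct for cell number. Differences were tested with the exact 2-sided permutation test of 4 against 4 hearts, whose smallest p is 0.0286, with adjustment over the 10 ratios of a time point. At D10 Cnn1 over Myh11 was higher in every EAM heart than in every control (difference 1.01, exact p = 0.0286, adjusted 0.143), and a single ratio at the smallest p cannot pass after adjustment over 10. With Lmod1 in place of Myh11 the D10 difference of Cnn1 was 0.77 (exact permutation p = 0.0857) and the groups overlapped. At D21, where same-numbered hearts were taken as pairs, the sign-flip test of the 4 pairs cannot give a p below 0.125, so no D21 ratio below could pass as a paired test.

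Cthrc1 rose within the fibroblast ratio too. Its log2 ratio to Pdgfra was −2.11 ± 1.13 in D15 EAM hearts and −7.19 ± 0.250 in controls (difference 5.08, exact p = 0.0286, adjusted 0.0476). At D21 it was −2.14 ± 1.29 against −7.59 ± 0.331 (difference 5.45, exact p = 0.0286, adjusted 0.0408). Pdgfra itself was at 146 ± 9.97 CPM in D15 EAM hearts and 90.6 ± 7.66 in controls, a log2 fold change of 0.73 ± 0.08, below the 2-fold limit. The ratio of Fap to Pdgfra did not pass at D15 (difference 0.49, exact permutation p = 0.343) and was higher at D21 by 0.91 (exact p = 0.0286, adjusted 0.0408). With Dpt as the reference the difference of Fap at D15 was 1.48 (exact permutation p = 0.0571). At D21 the adjusted p with Dpt was 0.0952 for Fap and 0.0571 for Cthrc1, whose difference was 5.36.

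Lox rose more than type I collagen at D15, and its paralogues rose less. Col1a1 went from 186 ± 29.7 to 3953 ± 1607 CPM, a log2 fold change of 4.45 ± 0.38. The log2 ratio of Lox to Col1a1 was −2.57 ± 0.302 in D15 EAM hearts and −4.02 ± 0.302 in controls (difference 1.46, exact p = 0.0286, adjusted 0.0476). The ratio of Loxl1 was lower in EAM, at −4.09 ± 0.484 against −1.09 ± 0.134 (difference −2.999, exact p = 0.0286, adjusted 0.0476). For Loxl2 the difference was −2.15 and for Loxl3 −1.53, at the same p. At D21 the ratio of Lox was higher by 0.94 and did not pass (exact permutation p = 0.0857), and those of Loxl1, Loxl2 and Loxl3 were lower by −2.07, −1.76 and −1.55 (each exact p = 0.0286, adjusted 0.0408). With Col3a1 as the reference the directions held and the sizes moved. At D15 the differences were then 2.51 for Lox, −1.95 for Loxl1, −1.10 for Loxl2 and −0.48 for Loxl3 (each adjusted p = 0.0357, exact test). At D21 they were 1.52, −1.49, −1.18 and −0.97, with an adjusted p of 0.0571.

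Fn1 kept its ratio to Col1a1 within the spread of hearts at D15, with a difference of −0.01 (exact permutation p = 0.971). With Col3a1 as the reference the ratio was higher in EAM by 1.04 (exact p = 0.0286), so the result turns on the collagen chosen. At D21 the ratio of Fn1 to Col1a1 was lower by −0.58 (exact p = 0.0286, adjusted 0.0408), and its ratio to Col3a1 differed by −0.001 (exact permutation p = 0.971).

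**Figure D4:**
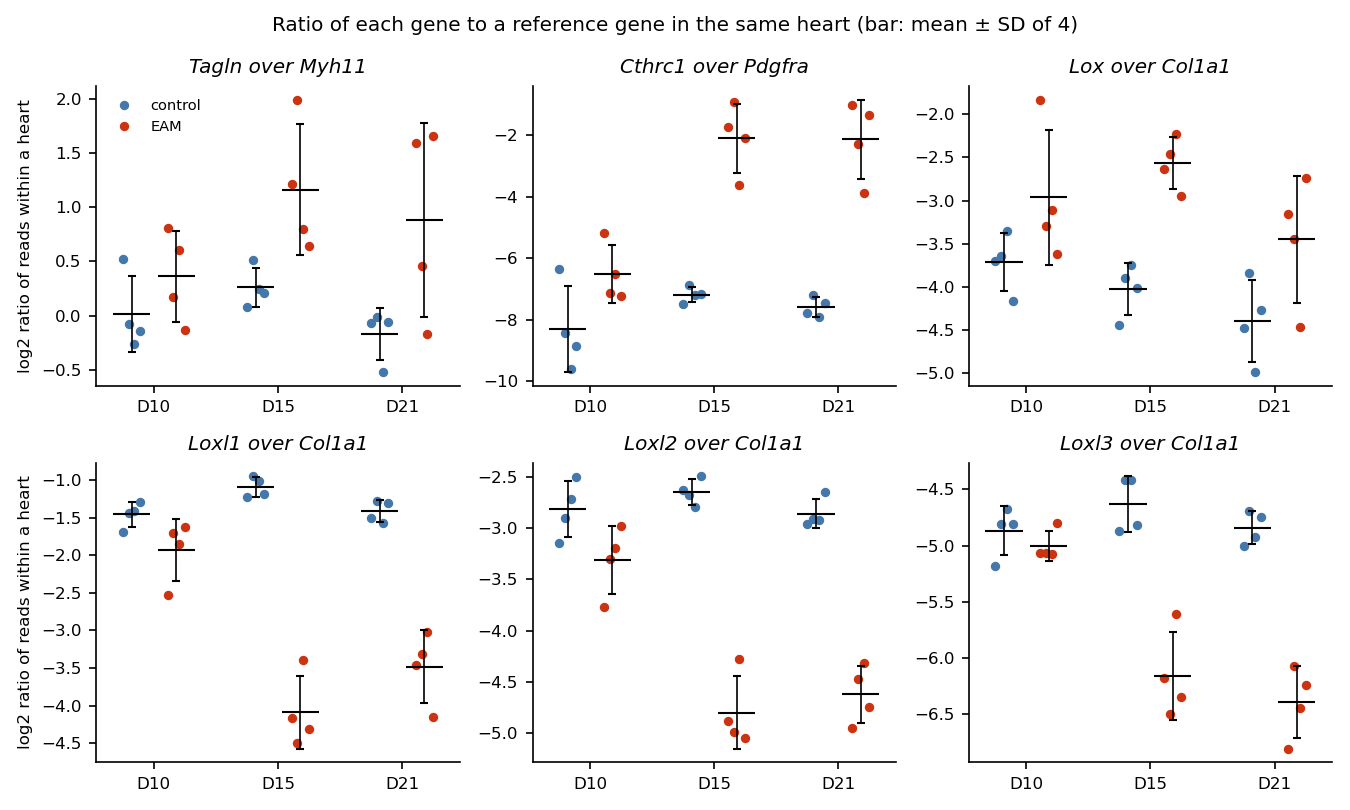
Log2 ratio of reads of a gene to reads of a reference gene in the same heart, by time point, with control in blue, EAM in red and the mean ± SD of 4 hearts in black. At D15 the EAM hearts lie above the controls for Tagln over Myh11, Cthrc1 over Pdgfra and Lox over Col1a1, and below them for Loxl1, Loxl2 and Loxl3 over Col1a1.

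The contractile members differed among themselves when set against Myh11. Myh11 was at 28.6 ± 11.01 CPM in D15 EAM hearts and 52.6 ± 6.97 in controls (log2 fold change −0.84 ± 0.27, FDR 0.0179). Tagln relative to Myh11 was 1.21, 1.99, 0.80 and 0.64 on the log2 scale in D15 EAM hearts and 0.08, 0.51, 0.24 and 0.21 in controls. The groups did not overlap (difference 0.90, exact p = 0.0286, adjusted 0.0476), and with Lmod1 in place of Myh11 the difference was 0.91. Cnn1 relative to Myh11 differed by 0.59 (exact permutation p = 0.0857), and with Lmod1 by 0.60 (exact p = 0.0286, adjusted 0.0357). Acta2 relative to Myh11 differed by −0.57 (exact permutation p = 0.257). At D21 the ratio of Acta2 was higher by 0.97 (exact p = 0.0286, adjusted 0.0408), which with Lmod1 became 0.51 (exact permutation p = 0.2). The D21 ratios to Myh11 differed by 1.05 for Tagln (exact permutation p = 0.114) and by 0.36 for Cnn1 (exact permutation p = 0.543). Acta2 itself was not higher at D21. Myh11 was at 31.8 ± 13.2 CPM in D21 EAM hearts and 72.7 ± 15.2 in controls (log2 fold change −1.18 ± 0.28, FDR 0.0166). The 12 smooth muscle and pericyte markers summed to 823 to 1447 CPM against 1936 to 2064 CPM, with a median log2 change of −0.64.

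Within groups, the matrix and crosslinking members went up and down together from heart to heart. With group means removed, the 15 pairs among Cthrc1, Fn1, Lox, Loxl1, Loxl2 and Loxl3 had Pearson correlations between 0.772 and 0.916 over 24 hearts. Fap had 0.436 to 0.737 with these 6 genes, and Acta2 had −0.577 to −0.235. Tagln and Cnn1 had 0.721 with each other and 0.01 and −0.02 with Acta2. Lox had 0.879 with Ptprc, the leukocyte gene for CD45, and Loxl1 had 0.61. The hearts share groups, composition and total counts, and these values are descriptions.

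Of the 14282 genes averaging 1 CPM or more, those whose deviations were most like those of each member were listed. For Loxl2 they were Col5a1 (0.975), Pdia5 (0.929) and Adamts12 (0.924). For Loxl3 they were Tsku (0.964), P3h1 (0.957) and Fkbp10 (0.951), the last 2 of which act on collagen in the endoplasmic reticulum. For Lox they were Nek6 (0.979), S100a11 (0.973) and Plaur (0.972), the last being the urokinase receptor, and for Fn1 they were Akr1b8 (0.967), Alcam (0.962) and Serpinb1a (0.957). For Loxl1 they were Olfml3 (0.946), 2410006H16Rik (0.919) and Col5a2 (0.918). For Cthrc1 they were Creb3l3 (0.946), Creg2 (0.944) and Hexa (0.942), and for Fap Antxr1 (0.875), Elk3 (0.866) and Ppic (0.864). For Acta2 they were Fgf16 (0.9), Htra1 (0.875) and Rpusd3 (0.838), for Tagln Ccn3 (0.807), Npnt (0.788) and Gm16589 (0.765), and for Cnn1 Ccn3 (0.812), Sost (0.773) and Scube3 (0.771).

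Of all genes tested, 18.1% were induced and 12.9% repressed at D15, and 4.3% and 1.3% at D21, and the lists that follow are read beside these shares. Counts of calls among other contractile genes and their regulators were near them, though the regulators leaned lower at an unadjusted p. Of 24 contractile genes, 6 were induced and 4 repressed at D15, and the median log2 change was −0.05 beside 0.02 over all genes. Actn1 and Zyx, which code for an actin crosslinker and a protein of focal adhesions, were induced (log2 fold changes 1.70 ± 0.14 and 1.60 ± 0.07). Fhl2 and Smtn were repressed (−1.75 ± 0.14 and −1.34 ± 0.09), and Fhl2 is also abundant in heart muscle. At D21 0 of 24 were induced and 1 was repressed, Itga8 (−1.68 ± 0.34), which was not called in the blocked fit (FDR 0.0115). Of 9 regulators of this programme 1 was induced at D15, Mrtfa (1.34 ± 0.10), and 1 repressed, Myocd, the coactivator of smooth and heart muscle genes (−1.04 ± 0.18). At an unadjusted p under 0.05, 1 was higher and 6 lower at D15, where 39.1% and 37.3% of genes tested were. At D21 0 of the 9 were called, with 2 higher and 6 lower at that limit, where 25.4% and 21.6% of genes tested were. The median log2 change of the 9 was −0.48 at D15 and −0.40 at D21, beside 0.02 and −0.01 over all genes.

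Of 24 other genes of activated fibroblasts, 19 were induced and 1 repressed at D15 (median log2 change 2.83), and 12 were induced and 1 repressed at D21 (median 1.84). Tnc, tenascin C, and Timp1, an inhibitor of metalloproteinases, had the largest changes at D15 (6.78 ± 0.26 and 6.40 ± 0.16) and at D21 (5.48 ± 0.95 and 5.43 ± 0.89), where Tnc lost its call in the blocked fit (FDR 0.0134). Lrrc15 was repressed at D15 (−3.03 ± 0.25) and Comp at D21 (−2.17 ± 0.24). Postn, periostin, was at 271 ± 127 CPM in D15 EAM hearts and 87.0 ± 20.2 in controls (1.68 ± 0.36, FDR 0.00224), and at 373 ± 93.1 against 104 ± 10.0 CPM at D21 (1.87 ± 0.19). At D10 0 of the 24 were called.

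Of 31 other genes that modify or crosslink matrix, 16 were induced and 1 repressed at D15, and 2 were induced and 0 repressed at D21. P4ha3, a subunit of collagen prolyl hydroxylase, was induced at D15 (4.47 ± 0.49) and D21 (3.77 ± 0.58). Tgm1, a transglutaminase, was induced at D15 (3.93 ± 0.20), and Colgalt2 was repressed (−1.91 ± 0.17). Adamts2, which trims the ends of procollagen, was the other gene induced at D21 (1.01 ± 0.19), and in the blocked fit its change of 0.98 was under the 2-fold limit. Loxl4 had an FDR of 0.025 at D21.

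Receptors of fibronectin and the proteins beside them were also mixed. Of 14, 6 were induced and 2 repressed at D15 (median log2 change 0.52), and 1 was induced and 1 repressed at D21. Itga4, an integrin chain of leukocytes, was induced at D15 and D21 (3.64 ± 0.14 and 1.98 ± 0.37), and Sdc4, a syndecan, at D15 (2.71 ± 0.06). Itgb6 and Itga8 were repressed at D15 (−1.80 ± 0.23 and −1.29 ± 0.36).

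Tgfb1, which codes for the growth factor that drives many of these genes in cultured fibroblasts, rose from 54.5 ± 1.58 to 147 ± 16.4 CPM at D15 (log2 fold change 1.47 ± 0.09, FDR 7.05e-07). Its D21 level was 94.0 ± 22.4 CPM with EAM and 60.1 ± 6.41 CPM without (0.67 ± 0.18, FDR 0.0239). Of 12 known targets of this factor, 6 were induced and 0 repressed at D15, led by Tgfbi (4.33 ± 0.15). At D21 1 was induced, Ltbp2 (2.39 ± 0.39).

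Promoters of 2 members, Acta2 and Cnn1, were found in the RefSeq table of GRCm38.p6, 250 bases before to 50 after the start. They were searched on both strands for exact matches only. Neither held the strict consensus of the CArG box of serum response factor, TGANTCA or TATAAA, which 1.63%, 7.81% and 13.6% of 32851 promoters held. Each held CAGAC once, as 49.6% did. CArG boxes with a base outside the strict consensus, such as those known in the Acta2 promoter, were not counted.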

How the data were processed

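RNA of 24 mouse hearts was measured, 4 EAM and 4 control at each time point, grouped by their titles. The authors mapped paired reads of 75 bases with HISAT2 2.0.4 onto GRCm38, dropped duplicates with Picard, counted Ensembl features with featureCounts and deposited raw counts without normalization. Dropping duplicates can lower the counts of abundant genes. The deposited single-sample files and joint table differed in 0 cells, and 92 spike-in features with 0 reads were left out.

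Tests used edgeR 4.0.16 (glmQLFit with legacy=FALSE) in R 4.3.3, with limma 3.58.1 and DESeq2 1.42.0 as alternatives, Python 3.11.15 and scipy 1.17.1. A gene was tested at a time point if 4 or more of the 8 hearts held 10 reads or more. Time points were contrasted in 1 fit of 24 hearts, and controls in 1 fit of 12. An SE is the log2 fold change over the square root of the test statistic. Printed CPM use TMM factors of all 24 libraries, and 3 reads are 0.120 to 0.190 CPM, which covers counting error only. Within-heart ratios add 0.5 reads to each count. The scripts were tested on simulated counts.

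The 10 genes, the lists and the tests were chosen with earlier results of these data known. Besides the members, the genes named are the 2 largest called changes in each direction of each list and time point, Loxl4, Myh11, Pdgfra, Col1a1, Postn and Tgfb1, and the 3 genes most like each member. A gene that this rule names is not reported here. Other actins, Ptprc and alternative references were named after values were seen. Alternatives were other tests, limits, scalings, filters, control sets, a replicate block and leaving out each library.

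Deviations from group means of same-numbered EAM and control hearts correlated at 0.101 to 0.307 over the 4 pairs of D21, which were therefore taken as pairs, at −0.0933 to 0.407 at D10 and at −0.105 to 0.0426 at D15, which were not. This pairing was read from the data and not from the labels, and differently numbered hearts were not compared.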

Additional observations from a re-analysis of the deposited data

Results flagged for a closer look

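The effect of EAM differed between D15 and D10, by the contrast in the fit of all 24 hearts with an FDR under 0.01, for 8 of the 10 genes. The log2 differences were 4.55 for Cthrc1, 4.05 for Lox, 3.51 for Fn1, 2.27 for Loxl3, 2.03 for Loxl2, 1.44 for Fap, 1.175 for Loxl1 and −1.39 for Acta2.

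Single hearts far from the other 3 of their group by Dixon's 95% limit were found 7 times in 120 groups of values, and chance flags about 1 in 20. Lox was at 167 CPM in D10 EAM replicate 1 and Tagln at 34.8 CPM in D21 EAM replicate 3. Cthrc1 was at 1.31 CPM in D10 control replicate 1 and at 0.469 CPM in D15 control replicate 1. The log2 ratio of Tagln to Myh11 was −0.52 in D21 control replicate 3. That of Loxl2 to Col1a1 was −2.65 in D21 control replicate 4, and that of Loxl3 to Col1a1 was −4.80 in D10 EAM replicate 4.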

How the results depend on the processing

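No called member changed direction under any alternative. The number of members induced at D15 stayed at 6 or 7, and Acta2 stayed repressed in each of them. At D21, 3 were induced, among 657 genes higher. The count was 5 at an FDR under 0.05 (1431 genes higher), 5 with the likelihood ratio test (1356), 5 with DESeq2 (1364) and 5 in the fit of all 24 hearts (1567). It was 6 against all 12 controls (1588), 2 with the replicate block (645), 0 with limma-voom (80) and 0 to 6 with 1 heart left out (0 to 1480). At D10, 1 member, Lox, was called against all 12 controls, among 636 genes higher and 52 lower of 15545. For D15 minus D10, 1 member moved down, Acta2, among 1234 genes. The number was 2 at an FDR under 0.05 (1678 genes), 0 with total counts (859), 0 with no filter (1063) and 0 with the replicate block (1141). With 1 heart left out it was 0 to 1 (644 to 1763 genes). The number that moved up was 5 to 7 (475 to 1961 genes). For D21 minus D15, 0 members moved up, among 464 genes. The number was 1 at an FDR under 0.05 (848 genes), 1 with the likelihood ratio test (645), 1 with DESeq2 (594) and 0 to 1 with 1 heart left out. At an FDR under 0.05, 1 member moved down (444 genes, against 158 at the main limit), and with 1 heart left out 0 to 2 did. The pairing or block by replicate number also left 6 rather than 7 members that moved up for D15 minus D10 and changed no other count of called members. At an unadjusted p under 0.05 it gave 6 members rather than 4 at D10, where all genes at that limit rose from 2279 to 2873 of 15029. For D21 minus D15 it gave 5 rather than 4, where all genes rose from 6689 to 7161 of 16318. The D21 ratios could not be called with pairs (smallest p 0.125). Total counts in place of TMM moved the median of all genes to 0.17 at D15.

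Values near 0 that were not called changed sign. Tagln at D15 became 0.099 with total counts and 0.067 against all controls, and Acta2 at D21 became 0.041 against all controls. The control difference of Loxl1 from D10 to D15 became 0.009 with limma-voom, 0.015 with total counts and 0.002 with no filter. Cnn1 over Lmod1 at D21 was −0.091 and Acta2 over Actc1 at D10 was 0.130. Unlike these, the D15 ratio of Fn1, which was near 0 with Col1a1, was 1.040 with Col3a1 and passed (exact test, adjusted p = 0.0357). With 1 heart left out, Acta2 ranged from −0.385 to 0.072 at D10 and from −0.365 to 0.048 at D21, and Tagln from −0.163 to 0.074 at D15 and from −0.295 to 0.051 for D21 minus D15. In controls, D15 minus D10, the ranges were Fn1 from −0.223 to 0.058, Fap from −0.033 to 0.293 and Loxl1 from −0.081 to 0.103. In controls, D21 minus D10, the ranges were Cthrc1 from −0.155 to 1.449, Loxl2 from −0.028 to 0.15 and Loxl3 from −0.003 to 0.166. In controls, D21 minus D15, the ranges were Acta2 from −0.063 to 0.117, Tagln from −0.143 to 0.203, Cnn1 from −0.175 to 0.233 and Lox from −0.008 to 0.247. The cause of these changes was not tested. Read depth limits Cthrc1 in controls, at 2 to 23 reads a heart.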
